A study of Aspergillus fumigatus with 4 samples.

Results

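The cell wall genes described here are 4 of the 9540 predicted genes of *A. fumigatus* Z5, a strain of the filamentous fungus *Aspergillus fumigatus*. They encode the GPI-anchored β-1,3-endoglucanase EglC (Y699_07606, family GH17), a cell wall glucanase annotated as allergen F16-like (Y699_07380, family GH16), a GPI-anchored cell wall protein (Y699_06281) and the serine- and threonine-rich galactomannoprotein Mp1 (Y699_03574). They were picked by locus tag, with their reads in these libraries already known, so their levels and ratios are a description and carry no test. No Z5 sequence or coordinates were used here.

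The wall of *Aspergillus* is a mesh of β-1,3-glucan, chitin, α-1,3-glucan and galactomannan in which proteins are embedded. GH17 and GH16 enzymes cut or rejoin β-glucan chains and so remodel the mesh as hyphae grow. Many of these enzymes and many structural wall proteins carry a glycosylphosphatidylinositol (GPI) anchor, a lipid that ties them to the membrane or, after trimming, to wall glucan. Galactomannoproteins such as Mp1 are wall and secreted glycoproteins known as antigens in human infection.

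Transcripts of mycelium were sequenced after growth on sucrose (the control, SGEP for sucrose-induced gene expression pattern) or after 16 h on oat spelt xylan (XGEP), Avicel cellulose (CGEP) or rice straw (RGEP). All cultures were strain Z5 at 45 °C, and the polysaccharide cultures came from a sucrose preculture (20 h in the sample labels, longer in the study's methods), were washed and were moved to a medium without yeast extract. Carbon source therefore cannot be told apart from the transfer, the medium change or, since the age of the sucrose culture at harvest is unclear, culture age. Each carbon source had 1 library, with 6820702 to 7553138 reads counted over the 9540 genes, so no difference below has a replicate check. The 95% intervals cover the error of counting reads only, which are PCR copies without molecular identifiers.

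Levels are given as reads and as RPM, the reads per 1000000 reads that the library had on all genes. RPM is not divided by gene length. A gene was called higher or lower between 2 libraries on 3 conditions: a q-value of 0.0001 or below (exact binomial test of the reads, Benjamini-Hochberg adjustment over all genes tested), a difference of at least 4-fold in RPM, and 10 RPM or more in either library. Such a call compares those libraries and not the conditions. For the 4 wall genes it only places them by the same rule as all other genes.

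EglC, annotated as a β-1,3-endoglucanase and with the symbol bgt2 at its match in strain Af293, was the most abundant of the 4 per kilobase in SGEP and XGEP. It had 103826 reads in SGEP, 68559 in XGEP, 7009 in CGEP and 53951 in RGEP, or 14820.2, 10052, 999 and 7143 RPM. By reads it ranked 3 of all genes in SGEP, 6 in XGEP and 13 in RGEP, but 111 in CGEP. The CGEP library thus stood apart from the other 3. Against SGEP, the EglC level was 14.8-fold lower in CGEP (95% interval 14.5 to 15.2), 2.07-fold lower in RGEP and 1.47-fold lower in XGEP, of which the CGEP difference alone was called. Of the 9423 genes with reads in SGEP or CGEP, 272 had a lower CGEP ratio than EglC.

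The GH16 glucanase Y699_07380 was highest in SGEP by a wide margin. Its reads were 6226 in SGEP, 34 in XGEP, 11 in CGEP and 62 in RGEP, or 889, 4.98, 1.57 and 8.21 RPM. None of the 3 polysaccharide libraries reached 10 RPM, and SGEP alone did. The drop from SGEP was 178-fold in XGEP (127 to 258), 567-fold in CGEP (317 to 1136) and 108-fold in RGEP (84.3 to 141). In XGEP, 3 genes of 9392 had a lower ratio to sucrose. Among the low libraries, RGEP was 5.24-fold above CGEP (2.73 to 11) and 1.65-fold above XGEP (1.07 to 2.58), differences between counts of 11, 34 and 62 reads that were not called.

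The GPI-anchored wall protein Y699_06281, whose role is not known beyond its anchor and wall annotation, was also highest in SGEP but was graded across the other libraries. It had 14763 reads in SGEP, 942 in XGEP, 7 in CGEP and 111 in RGEP, or 2107, 138, 0.998 and 14.7 RPM. All 4 libraries were separated from each other beyond counting error, in the order SGEP, XGEP, RGEP, CGEP. The CGEP ratio to sucrose, 2112-fold lower (1025 to 5255), rested on 7 reads, and 2 genes of 9423 had a lower one. The level was 15.3-fold lower than SGEP in XGEP (14.3 to 16.3) and 143-fold lower in RGEP (119 to 174).

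Mp1, a wall galactomannoprotein with the symbol mp1 in Af293, ran the other way. It had 26 reads in SGEP, 1396 in XGEP, 6019 in CGEP and 127515 in RGEP, or 3.71, 205, 858 and 16882 RPM. In rank by reads it passed from 7474 in SGEP through 842 in XGEP and 139 in CGEP to 3 in RGEP. Per kilobase of coding length it was the most abundant gene of the RGEP library, at 19746 RPM per kilobase. Against SGEP, Mp1 was 55.1-fold higher in XGEP (37.5 to 84.7), 231-fold in CGEP (158 to 354) and 4549-fold in RGEP (3104 to 6964). In RGEP, 2 genes of 9408 had a larger ratio to sucrose, and the width of each interval was set mainly by the 26 sucrose reads.

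**Figure D1:**
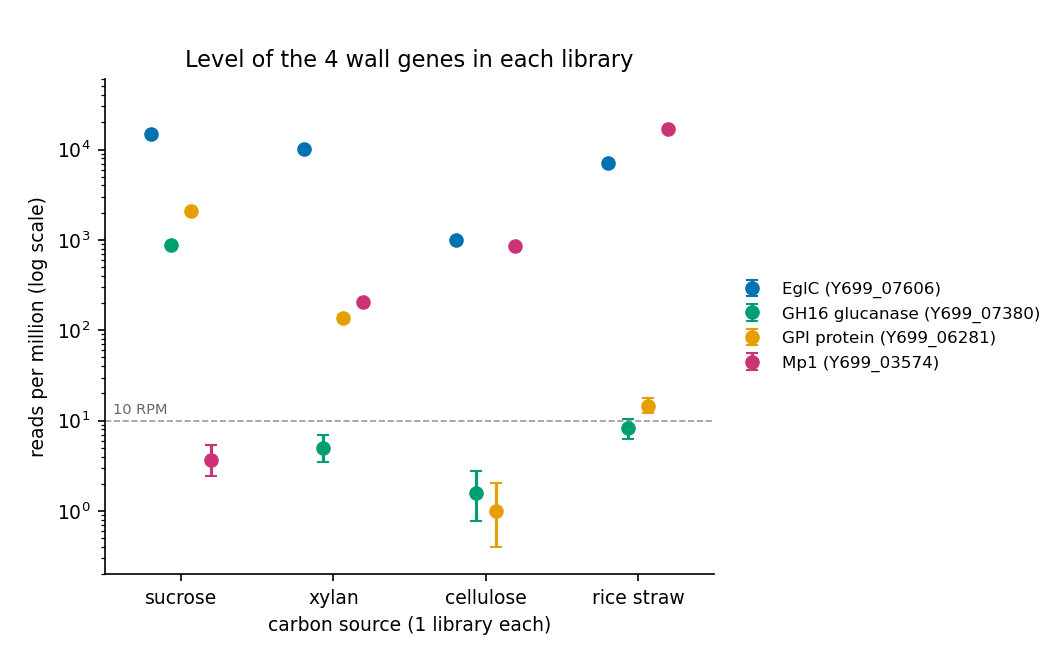
Level of each of the 4 wall genes in each library, in RPM on a log axis, 1 library per carbon source; bars are exact 95% counting intervals, and the dashed line marks 10 RPM. Mp1 goes from 3.71 RPM in sucrose to 16882 RPM in rice straw, while EglC, Y699_07380 and Y699_06281 are lowest in cellulose, at 999, 1.57 and 0.998 RPM.

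The order of the carbon sources differed between the genes. EglC, Y699_06281 and Y699_07380 all had their highest level in SGEP and their lowest in CGEP, whereas Mp1 had SGEP last. XGEP was second to SGEP for EglC and Y699_06281. RGEP was second for Y699_07380, but by 62 reads against 34 in XGEP, a difference that was not called. On the scale of log2(RPM + 0.1), the widest difference between any 2 libraries was 3.89 for EglC, 9.06 for Y699_07380, 10.91 for Y699_06281 and 12.11 for Mp1. The median over the 7447 genes that reached 10 RPM in any library was 1.63 on that scale. In the same set 858 genes had a wider spread than EglC, 50 than Y699_07380, 15 than Y699_06281 and 5 than Mp1.

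Compared per kilobase of coding length within a library, the balance between EglC and Mp1 turned over. EglC was 2523-fold above Mp1 in SGEP and 31.0-fold above it in XGEP. Mp1 was 1.36-fold above EglC in CGEP and 3.74-fold above it in RGEP. Between the other pair, the GPI protein Y699_06281 was above the glucanase Y699_07380 per kilobase by 2.23-fold in SGEP, 26.1-fold in XGEP and 1.68-fold in RGEP, whereas in CGEP Y699_07380 was 1.67-fold above Y699_06281, with 11 and 7 reads behind that ratio.

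Of the reads counted on genes, the 4 together took 1.78% in SGEP (1.77 to 1.79%) and 1.04% in XGEP (1.03 to 1.05%). They took 0.186% in CGEP (0.183 to 0.189%) and 2.40% in RGEP (2.39 to 2.42%). The sum was lowest in CGEP, and its makeup changed from library to library. EglC supplied 83.2% of the summed reads in SGEP, 96.7% in XGEP, 53.7% in CGEP and 29.7% in RGEP. Mp1 supplied 0.0208%, 1.97%, 46.1% and 70.2% in the same order. The GPI protein Y699_06281 and the glucanase Y699_07380 supplied 11.8% and 4.99% of the sum in SGEP and, in the other libraries, at most 1.33% and 0.0843%.

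**Figure D2:**
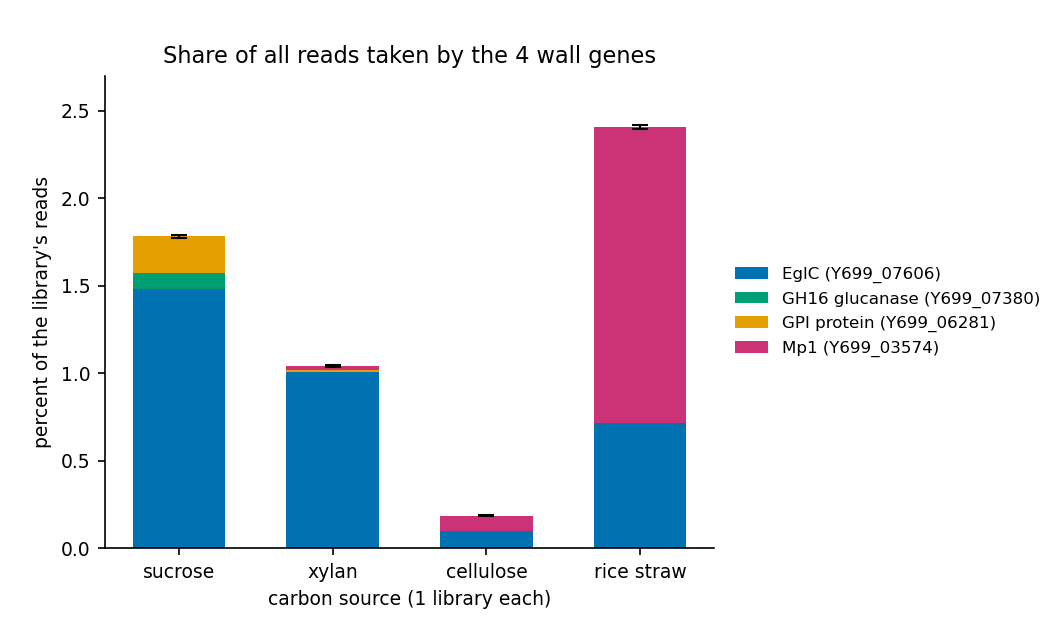
Percent of each library's reads counted on genes that fell on the 4 wall genes, stacked by gene, 1 library per carbon source. Bars at the top are exact 95% counting intervals of the sum. The sum is 1.78% in sucrose, mostly EglC, and 2.40% in rice straw, mostly Mp1, and it is 0.186% in cellulose.

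In XGEP against SGEP, 1 of the 4 genes was called higher (Mp1) and 2 lower (Y699_07380 and Y699_06281), where 4.73% of the 9392 genes tested were called (3.16% higher, 1.57% lower). In CGEP against SGEP, 1 was called higher (Mp1) and 3 lower, beside 18.2% of genes called (10.9% higher, 7.28% lower). In RGEP against SGEP, 1 was called higher (Mp1) and 2 lower (Y699_07380 and Y699_06281), beside 14.7% (7.61% higher, 7.12% lower). The split of the calls over all genes depended on the scaling: with TMM and DESeq2 factors the share of higher calls went from 66.9% to 75.8% and 77.1% in XGEP and from 51.7% to 65.0% and 65.2% in RGEP, both against SGEP. These comparisons share the sucrose library, and the genes were chosen on these values, so nothing is read from the counts. The median log2 ratio of all genes to sucrose was -0.20 in XGEP, 0.07 in CGEP and -0.30 in RGEP. Relative to those medians EglC stood at -0.36, -3.97 and -0.75.

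The transferred cultures can be set against each other without the sucrose library. In CGEP against XGEP, where 16.1% of genes were called (9.65% higher, 6.49% lower, the higher share of the calls going from 59.8% to 48.8% with TMM and 48.3% with DESeq2 factors), EglC was 10.1-fold lower (9.82 to 10.3), Y699_06281 was 138-fold lower (66.9 to 345) and Y699_07380 was 3.18-fold lower (1.57 to 6.96, not called). Mp1 was 4.19-fold higher in that comparison (3.95 to 4.45), just past the 4-fold threshold, and with edgeR TMM or DESeq2 factors or totals without the most abundant 1% of genes its log2 ratio of 2.07 came to 1.79, 1.78 and 1.95, under the threshold. In RGEP against XGEP, with 9.23% of genes called (4.56% higher, 4.68% lower), Mp1 was 82.5-fold higher (78.2 to 87.0), Y699_06281 was 9.40-fold lower (7.71 to 11.5) and EglC was 1.41-fold lower (not called). In RGEP against CGEP, with 10% called (4.26% higher, 5.76% lower, the higher share of the calls going from 42.5% to 61.1% with TMM or DESeq2 factors), 3 of the 4 were called higher: Mp1 by 19.7-fold (19.2 to 20.2), Y699_06281 by 14.7-fold (6.92 to 37.5) and EglC by 7.15-fold (6.97 to 7.33).

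**Figure D3:**
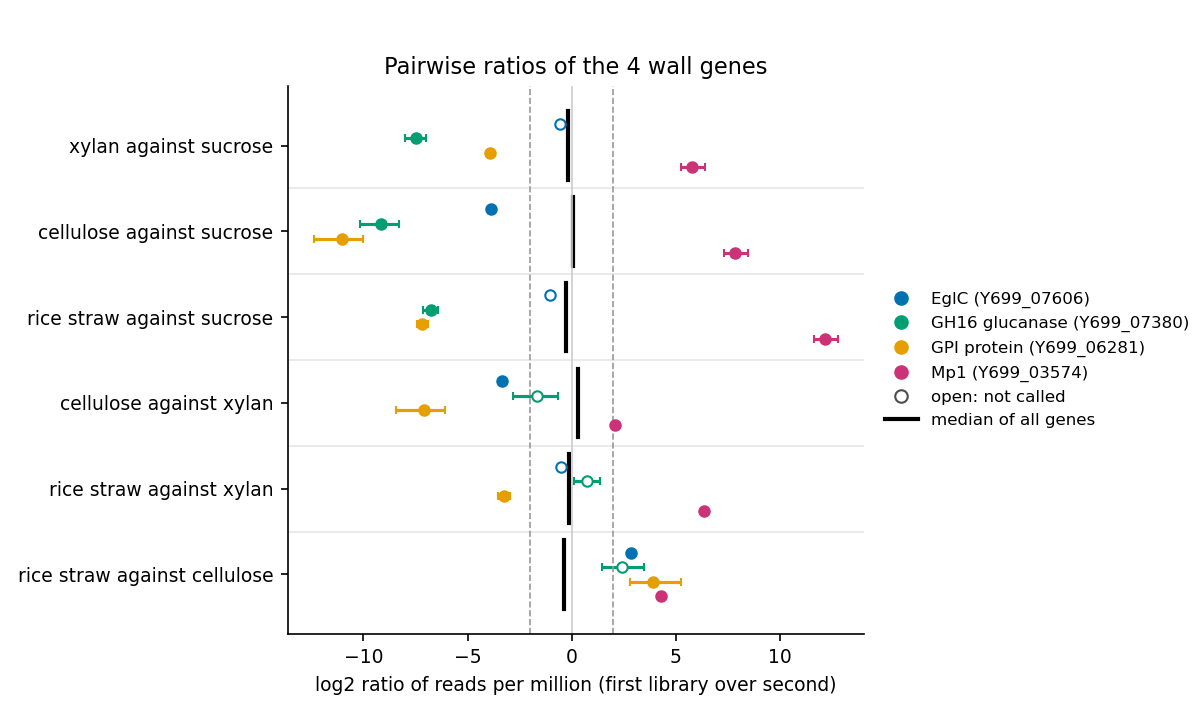
Log2 ratio of RPM for each of the 4 wall genes in the 6 pairwise comparisons, first-named library over second; bars are exact 95% counting intervals, open points were not called, dashed lines mark 4-fold and the black tick is the median of all genes. Mp1 lies to the right in every comparison, from 2.07 in cellulose against xylan to 12.15 in rice straw against sucrose, while Y699_06281 is to the left except in rice straw against cellulose.

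Of the 24 ratios of the 4 genes, 18 were called, where 4.73% to 18.2% of all genes were called in each comparison. With edgeR's exact test and a biological coefficient of variation set to 0.4, which stands in for unmeasured variation between cultures, 8 of these calls were lost. They were the 3 calls of EglC, Y699_06281 in XGEP against SGEP and in RGEP against XGEP or CGEP, and Mp1 in CGEP against XGEP and RGEP against CGEP. Over all genes the calls against SGEP went from 444 to 70 in XGEP, 1711 to 347 in CGEP and 1386 to 214 in RGEP. They went from 1518 to 192 in CGEP against XGEP, 869 to 96 in RGEP against XGEP and 943 to 114 in RGEP against CGEP. The 4 genes were chosen on these values, so nothing is read from the calls they kept.

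The mycelial libraries were checked for conidial transcripts with 7 markers of spores and spore pigment. Their summed level was 83.4 RPM in SGEP, 116 in XGEP, 3502 in CGEP and 88.8 in RGEP, and none was at 0 in any library. Of the 7, 6 were called higher in CGEP than in SGEP, where 10.9% of all genes were called higher. In XGEP 2 of the 7 were called higher than in SGEP and in RGEP 1, beside 3.16% and 7.61% of all genes. Hydrophobin RodB (Y699_09371), a coat protein of conidia, had 4.85 RPM in SGEP and 2072 RPM in CGEP, RodA (Y699_00799) had 0.571 and 512 RPM, the pigment polyketide synthase PksP (Y699_02122) had 62.1 and 607 RPM, and Arp2 (Y699_02124) had 5.85 and 131 RPM. The CGEP library in which EglC, Y699_07380 and Y699_06281 were lowest was thus also the library with the highest level of each marker. Their part in the wall gene levels was not tested, and in such bulk RNA fewer cells of a type and less RNA per cell cannot be told apart. The actin (Y699_04988) and histone (Y699_07225) genes that served the study as qPCR references were called in none of the 6 comparisons and differed by at most 2.12-fold, for actin in CGEP against SGEP.

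The genes with the most similar profile were sought among 7446 others by the root mean square difference of centred log2(RPM + 0.1) over the 4 libraries. For EglC, 580 genes lay within 1 log2 unit. The nearest were a pyruvate dehydrogenase gene (Y699_03262, difference 0.14) and hypothetical proteins Y699_02436 (0.15) and Y699_08738 (0.17). Y699_03262 had 1.71 RPM in CGEP and 21.6 RPM in SGEP. Fewer genes lay as near to the other wall genes. The measure takes in the size of a gene's spread as well as its shape, and those genes had wider spreads than EglC. Within 1 log2 unit lay 7 genes for Y699_07380, led by a sugar nucleotide epimerase family gene (Y699_07826, 0.71), an unannotated gene (Y699_05853, 0.74) and a short-chain dehydrogenase gene (Y699_07833, 0.77), and Y699_07826 had 674 RPM in SGEP and 4.99 to 12 RPM elsewhere.

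For the GPI protein Y699_06281, 2 genes lay within 1 log2 unit, hypothetical protein Y699_09434 (0.75) and a C4-dicarboxylate transporter gene (Y699_02117, 0.90). The next was NiiA (Y699_05083, 1.0), the nitrite reductase of nitrate assimilation, with 2333 RPM in SGEP, 335 in XGEP, 115 in RGEP and 3.14 in CGEP. No gene lay within 1 log2 unit of Mp1. Its nearest were an acetyl xylan esterase gene (Y699_05457, 1.12), a cell wall protein gene (Y699_07973, 1.24) and an MFS sugar transporter gene (Y699_02054, 1.25), whose levels followed the library order of Mp1, the transporter going from 4.71 RPM in SGEP to 3355 RPM in RGEP. Among the 4 wall genes themselves the closest pair was Y699_07380 with Y699_06281, at 1.97, and Mp1 lay 5.17 to 7.86 from the others.

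EglC is 1 of 5 genes annotated to GH17, a family of β-1,3-glucanases and glucan-branching enzymes. The other highly expressed member, Y699_05526, resembles Scw11, a wall protein of yeast, and had 2276 RPM in SGEP, 2150 in XGEP, 369 in CGEP and 2345 in RGEP. It was 6.17-fold lower in CGEP than in SGEP and was called in no other comparison with sucrose, as was the case for EglC. Its RGEP level was 1.03-fold that of SGEP, while EglC was 2.07-fold lower in RGEP. Y699_00720 (bgt3 in Af293) was instead 4.41-fold higher in CGEP, from 53.8 to 237 RPM. In CGEP 1 of the 5 GH17 genes was higher and 2 lower, EglC included, beside 10.9% and 7.28% of all genes. None of the 5 was called in XGEP or RGEP against SGEP, where 4.73% and 14.7% of all genes were, and nothing is read from 5 genes. Without EglC the family summed to 2891, 2755, 1134 and 3247 RPM in SGEP, XGEP, CGEP and RGEP. Y699_08130 carries a GH17 annotation but a myosin heavy chain description.

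The glucanase Y699_07380 is 1 of 14 GH16 genes, a family of β-glucanases and of enzymes that join glucan to chitin. Against SGEP, 2 of the 14 were called lower and 0 higher in XGEP, 3 lower and 4 higher in CGEP, and 3 lower and 0 higher in RGEP, with Y699_07380 among the lower each time. Over all genes 3.16%, 10.9% and 7.61% were called higher and 1.57%, 7.28% and 7.12% lower. Next to Y699_07380, the endo-β-glucanase Y699_00194 (eng4 in Af293) was 4.43-fold, 25.5-fold and 30.5-fold lower, and Y699_05261 was 8.87-fold lower in CGEP and 7.02-fold in RGEP. With TMM or DESeq2 factors 1 gene was lower in XGEP and 3 were higher in CGEP.

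The GH16 genes that were higher in CGEP reached at most 23.8 RPM there. Y699_07776 had 167 reads in CGEP and 0 in each other library, at least 55.6-fold above SGEP with 0 set to a floor of 3 reads. The GH16 gene with the highest RPM, Crf1 (Y699_09027), an allergen that links chitin to glucan, had 2255 RPM in SGEP, 2125 in XGEP, 599 in CGEP and 889 in RGEP and was not called. Its CGEP level was 3.77-fold below SGEP and 3.55-fold below XGEP, short of the 4-fold threshold. With TMM or DESeq2 factors the GH16 genes called lower in CGEP against XGEP went from 1 to 2. Utr2 (Y699_03101), a related crosslinker named after its match in yeast, varied less, with 564 to 770 RPM across the 4 libraries. Utr2 was picked after its values were seen. Across the 13 GH16 genes other than Y699_07380 the median log2 ratio to sucrose was -0.49 in XGEP, 0.38 in CGEP and -0.96 in RGEP, beside -0.20, 0.07 and -0.30 for all genes, where the XGEP and RGEP medians cover the 11 and 12 genes with reads in either library.

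GH72 enzymes, the Gel glucanosyltransferases, lengthen β-1,3-glucan chains and are GPI-anchored like EglC. The 7 genes did not move as a block. Gel2 (Y699_04274) was higher in each polysaccharide library, with 68.5 RPM in SGEP, 502 in XGEP, 1730 in CGEP and 1105 in RGEP. Gel1 (Y699_04684) was 4.71-fold lower in CGEP and 4.81-fold lower in RGEP, the second of which missed the 4-fold threshold with TMM or DESeq2 factors. Y699_05765, annotated to GH72 but described as an ankyrin repeat protein, was 11.5-fold lower in XGEP and 14.2-fold in CGEP. Y699_04371 was 11.1-fold lower in CGEP, from 14.3 RPM. The gene with the highest RPM, Y699_03310, had 1223 to 3924 RPM and was not called. In all 1, 1 and 1 GH72 genes were higher and 1, 3 and 1 lower in XGEP, CGEP and RGEP against SGEP, where 3.16%, 10.9% and 7.61% of all genes were higher and 1.57%, 7.28% and 7.12% lower.

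The exo- and endo-β-1,3-glucanases of GH55 and GH81, which break glucan down, had 0 of 8 genes called in XGEP, 3 higher in CGEP and 1 higher in RGEP, and 0 lower. Over all genes 3.16%, 10.9% and 7.61% were higher and 1.57%, 7.28% and 7.12% lower, so nothing is read from 0 lower of 8. Engl1 (Y699_06862), the GH81 endoglucanase, was 5.65-fold higher in CGEP, exoglucanase Y699_01799 was 5.75-fold higher, and exoglucanase Y699_04447 was 37.3-fold higher in CGEP and 30.7-fold in RGEP. Their sum was 171 RPM in SGEP, 97.9 in XGEP, 689 in CGEP and 201 in RGEP. The sum was highest in CGEP, where EglC had its lowest level.

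GH18 chitinases and GH71 α-1,3-glucanases act on the other wall polymers. Of 17 chitinase genes 1 was higher and 0 lower in XGEP, 2 higher and 2 lower in CGEP, and 2 higher and 1 lower in RGEP, where over all genes 3.16% and 1.57%, 10.9% and 7.28%, and 7.61% and 7.12% were higher and lower. The chitinase counts in CGEP and RGEP were thus near the share over all genes. ChiA1 (Y699_00332) had the highest RPM, with 669, 2064, 61.3 and 3121 RPM in SGEP, XGEP, CGEP and RGEP. It was lowest in CGEP, as EglC was, whereas ChiB1 (Y699_05833) was 1706-fold higher there than in SGEP, at 974 RPM, and the chitinase Y699_08538 was 184-fold higher, each from 4 reads in SGEP. Of the 17, 9 had their highest level in CGEP, beside 36.4% of all genes with reads. In GH71, 4 of 8 genes were higher and 1 was lower in CGEP, beside 10.9% and 7.28% of all genes. In RGEP 1 was higher and 0 lower, beside 7.61% and 7.12%, and in XGEP 0 were called. The GH71 gene with the highest RPM, Y699_03182, had 1339 RPM in CGEP and at most 2.65 RPM elsewhere. Y699_07702 had its highest level in RGEP, at 868 RPM. The family summed to 74.4, 117, 2517 and 892 RPM in SGEP, XGEP, CGEP and RGEP. The conidial markers were higher in CGEP as well, and their part in these families was not tested.

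**Figure D4:**
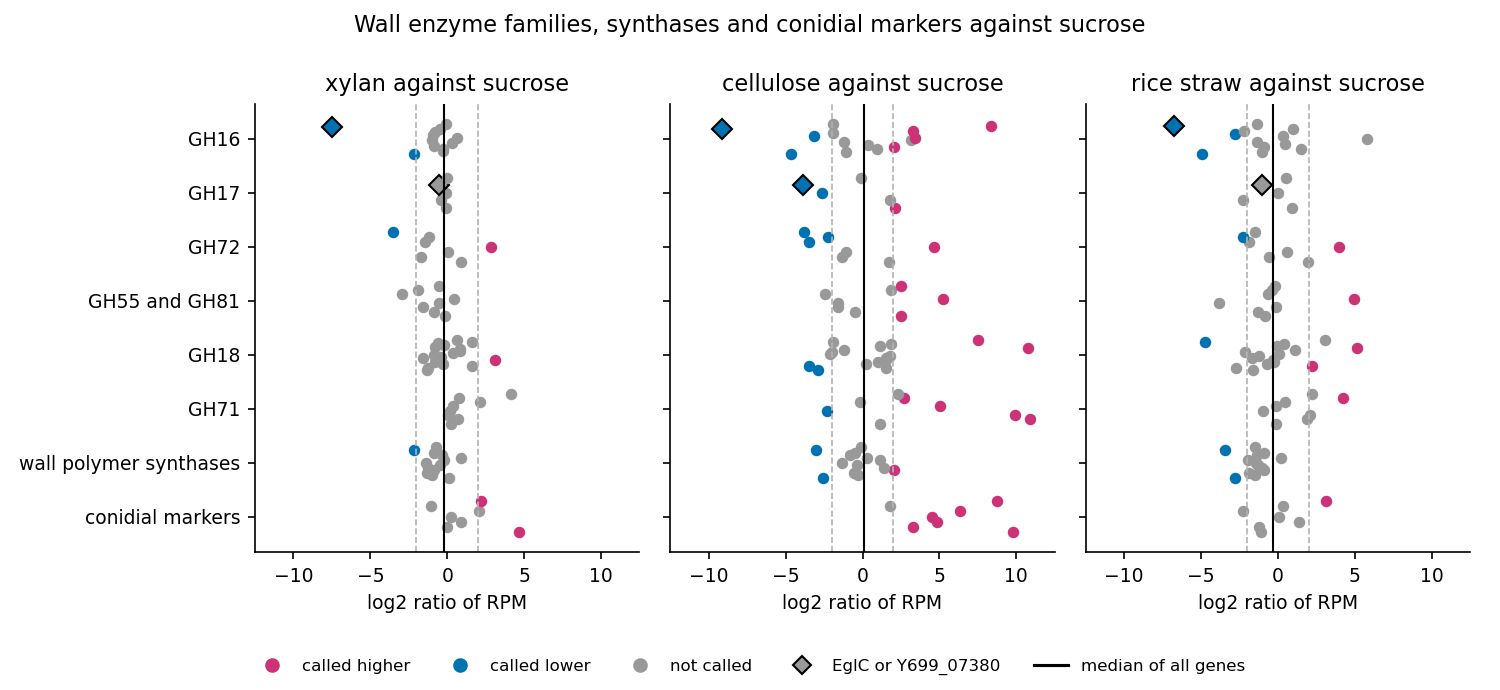
Log2 ratio of RPM to sucrose for each gene of the wall enzyme families, the wall polymer synthases and the conidial markers, with 1 panel per polysaccharide; colours give the call, diamonds are EglC (GH17) and Y699_07380 (GH16), dashed lines mark 4-fold and the black line is the median of all genes. Y699_07380 is the lowest gene shown in each panel, at -7.48, -9.15 and -6.76, and 6 of 7 conidial markers are called higher in cellulose.

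Of 13 synthase genes for wall polymers (chitin, β-1,3-glucan, α-1,3-glucan and the yeast-like Kre6), 8 had their highest level in SGEP and 0 in RGEP, whereas 31.6% and 17.1% of all genes with reads did. Against SGEP, 1 was called lower in XGEP (0 with TMM or DESeq2 factors), 2 lower and 1 higher in CGEP (2 lower and 0 higher with those factors) and 2 lower in RGEP, beside 1.57%, 7.28% and 7.12% of all genes lower and 10.9% higher in CGEP. The α-1,3-glucan synthase Ags3 (Y699_09083) had 2529, 564, 312 and 231 RPM in SGEP, XGEP, CGEP and RGEP. Chitin synthase C (Y699_00049) had 338, 367, 56.4 and 48.3 RPM. Kre6 (Y699_02668), which is also in GH16, was the gene higher in CGEP, at 19.8 RPM. The β-1,3-glucan synthase subunit Y699_04370, picked after its values were seen, helps make the polymer named in the EglC annotation. It had 2767 RPM in SGEP and 1021 to 1102 RPM in the other libraries and was not called, so that it did not share the CGEP minimum of EglC.

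A further 21 genes had function texts naming a GPI anchor, the cell wall, the cell surface or a galactomannoprotein. Those texts were held only for genes that the study selected as varying in these libraries, and the counts below are therefore no independent evidence of a direction. With the 4 wall genes, 25 in all, 4 were higher and 3 lower in XGEP, 7 higher and 11 lower in CGEP, and 11 higher and 6 lower in RGEP. Without the 4 wall genes, which were chosen on these values, the 21 gave 3 higher and 1 lower, 6 and 8, and 10 and 4. Over all genes 3.16% and 1.57%, 10.9% and 7.28%, and 7.61% and 7.12% were higher and lower. Next by RPM after Mp1 and EglC were the GPI-anchored proteins Y699_08151, with 9411, 3086, 1100 and 3097 RPM in SGEP, XGEP, CGEP and RGEP, and Y699_06721, with 3797, 5190, 294 and 8763 RPM. Both were lowest in CGEP, as EglC was, and were called lower there.

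Some of these genes paralleled Mp1 or Y699_06281, and the 3 below were picked after their values were seen. A second gene described as an antigenic galactomannoprotein, Y699_03713, had 0 reads in SGEP, 7 in XGEP, 13 in CGEP and 536 in RGEP. It kept the library order of Mp1 and was at least 166-fold higher in RGEP than in SGEP with the floor of 3 reads. The wall protein gene Y699_07973 had 1, 133, 490 and 1425 reads in that order of libraries. The GPI-anchored wall protein gene Y699_07627 fell instead, with 3668 reads in SGEP, 73 in XGEP, 1 in CGEP and 65 in RGEP, so that it was highest in SGEP and lowest in CGEP, as Y699_06281 was.

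The genes next to the 4 in locus-tag order were also read. The 10 genes around Mp1 (5 on each side) reached at most 9.98 RPM in any library, so that none could meet the 10 RPM condition of a call. Their summed level was 7.42 RPM in SGEP, 6.60 in XGEP, 22.9 in CGEP and 17.2 in RGEP. Their median log2 ratio to sucrose was -0.45 in XGEP, 1.95 in CGEP and 0.89 in RGEP, beside -0.20, 0.07 and -0.30 for all genes, the XGEP and RGEP medians covering the 9 genes with reads in either library, so that in CGEP and RGEP it lay on the same side as Mp1. Without the RPM condition 2 of the 10 were higher in CGEP and 2 in RGEP against SGEP, where 12.8% and 8.86% of all genes were. Around each of Y699_07380 and Y699_06281, 1 gene was higher and 1 lower in CGEP, of 9 and 10 tested, near the 10.9% and 7.28% of all genes. Around Y699_07380, 1 was lower in CGEP (Y699_07384, 5.71-fold) and a cellulose-binding domain gene, Y699_07375, was higher in CGEP (943-fold) and RGEP (435-fold), the direction opposite to Y699_07380. Y699_07375 reached 673 RPM in CGEP from less than 1 RPM in SGEP, so both of its ratios rest on few sucrose reads. Around Y699_06281, the adjacent PAP2 domain gene Y699_06282 was 7.47-fold lower in CGEP, the nucleolar GTPase gene Y699_06279 was 9.26-fold higher in CGEP and 6.40-fold in RGEP, and Y699_06278 was 4.76-fold lower in RGEP, though not with TMM or DESeq2 factors. With the assumed coefficient of variation of 0.4, 0 of the calls around Y699_06281 were left.

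**Figure D5:**
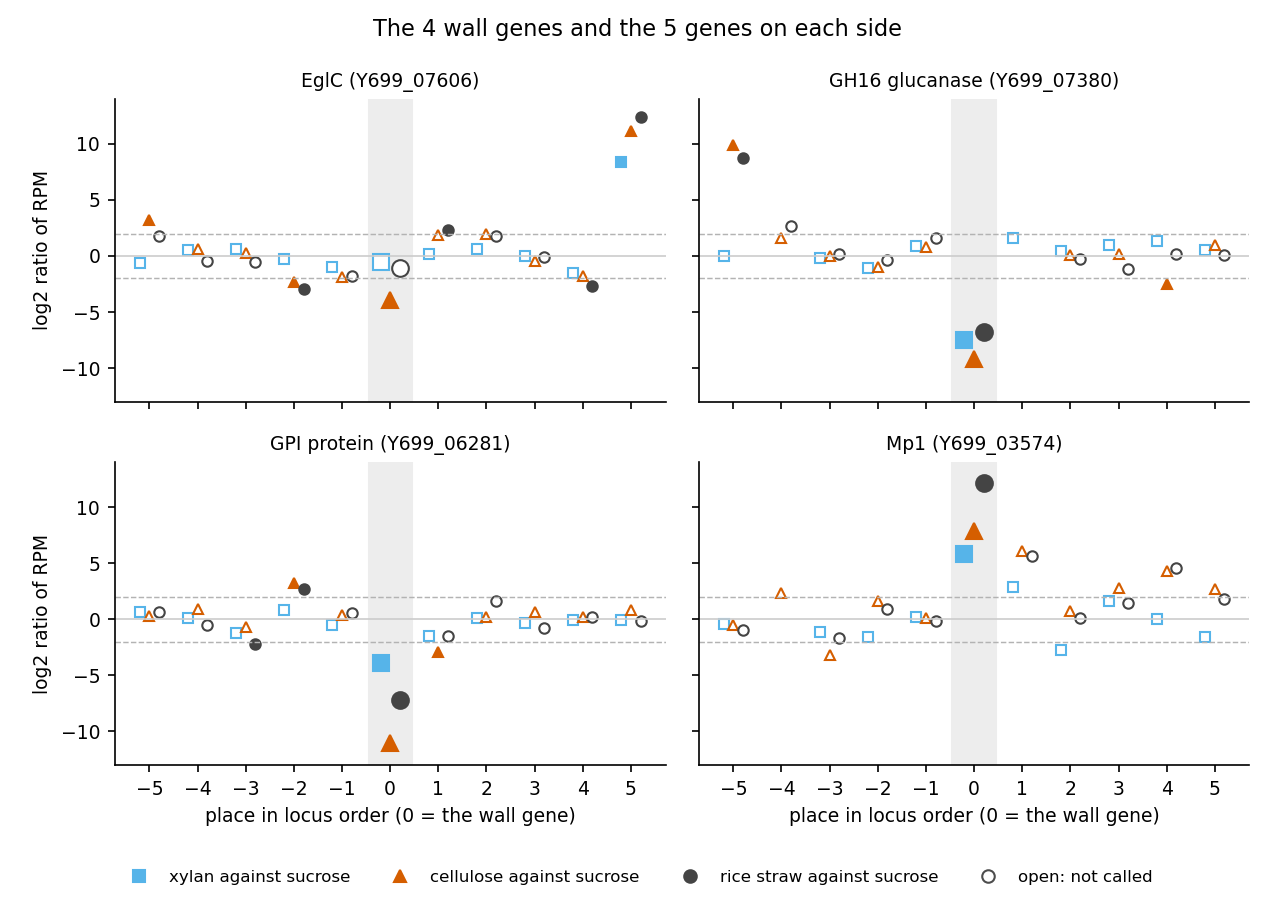
Log2 ratio of RPM to sucrose for each of the 4 wall genes (place 0, shaded) and the 5 genes on each side in locus-tag order; symbols are the polysaccharide libraries, open symbols were not called, dashed lines mark 4-fold and genes without reads in both libraries are left out. The 10 genes around Mp1 stay below 10 RPM in every library and could not be called, and the xylanase gene 5 places from EglC reaches 12.43 in rice straw.

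EglC lies in a stretch of 21 genes that the study defined as CAZyme cluster 25 (Y699_07603 to Y699_07623). It held 15970 RPM in SGEP, of which the other 20 genes made up 1150 RPM. Against SGEP, 4 genes were higher and 0 lower in XGEP, 2 higher and 4 lower in CGEP, and 4 higher and 3 lower in RGEP (2 lower with TMM or DESeq2 factors). The CGEP count includes EglC, chosen on these values, without which 3 were lower, and over all genes 3.16% and 1.57%, 10.9% and 7.28%, and 7.61% and 7.12% were higher and lower in the 3 comparisons. The GH11 xylanase XlnA (Y699_07611), which cuts the xylan backbone, had 3, 994, 6647 and 17821 reads in SGEP, XGEP, CGEP and RGEP, a rise where EglC fell or was not called. A phosphoketolase gene (Y699_07616) was 24.5-fold lower in CGEP and 4.64-fold in RGEP, and an F-box gene (Y699_07621) was 16.8-fold lower in CGEP. Of the 10 genes around EglC, XlnA included, 1 was higher and 0 lower in XGEP, 2 and 1 in CGEP, and 2 and 2 in RGEP. Next to EglC itself, the TPR domain gene Y699_07604 was 4.98-fold lower in CGEP and 7.56-fold in RGEP. The metallo-β-lactamase domain gene Y699_07607 was 5.05-fold higher in RGEP, and the phytase gene Y699_07610 was 6.48-fold lower in RGEP. Called genes of the cluster thus differed in direction in CGEP and RGEP.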

How the data were processed

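The deposited table of the authors holds read counts, RPM and gene length for 9540 genes in 4 libraries. The authors mapped reads with Bowtie 0.12.2 (submitters' processing notes). How strand and reads with several matches were handled is not given in the sources used here, so reads of near-identical genes may be shared. The deposited RPM are counts scaled to 1000000 reads summed over these genes. All 9540 deposited lengths are multiples of 3 and were taken as coding length. The authors' log2 ratios, q-values and calls were not used.

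Counts were scaled by library totals and tested by an exact two-sided binomial test. Where a library had 0 reads, 0.5 was added to both before log2. The test was checked on simulated libraries with known changes. Families, cluster 25 and texts came from the study's tables, and Af293 symbols from RefSeq (ASM265v1). Members and lists were chosen with earlier results of these data known. Named genes were drawn from the 4, up to 4 called genes per list by highest RPM, the 3 nearest profiles and the reference genes. GH16, GH17 and GH72 genes reaching 1000 RPM were added. Not every gene under this rule was named. Genes outside it were Y699_08130 and those marked above as picked after their values were seen. Alternatives were 3 other scalings, an assumed coefficient of variation, no RPM filter and a 2-fold threshold. Tools were R 4.3.3 (edgeR 4.0.16, DESeq2 1.42.0) and Python 3.11.15 (scipy 1.17.1, pandas 2.3.3, numpy 2.4.6, matplotlib 3.10.9).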

Additional observations from a re-analysis of the deposited data

How the results depend on the processing

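With edgeR TMM factors, DESeq2 size factors, totals without the most abundant 1% of genes or the assumed coefficient of variation of 0.4, 85 of 96 values of the 4 genes kept their direction and their side of the call thresholds, 11 kept the direction but were no longer called, and 0 reversed. No reversal was possible. The assumed variation leaves each ratio as it was. The scalings shifted log2 ratios by at most 0.38, and the smallest ratio was -0.49 (EglC in RGEP against XGEP). The 4 genes were also chosen on these values, so nothing is read from these counts. Mp1 in CGEP against XGEP was called with none of these settings. Its log2 ratio was under the 4-fold threshold with the scalings, at 1.79, 1.78 and 1.95. With the assumed variation it stayed at 2.07, past that threshold, but q was above 0.0001. The assumed variation also ended the calls of EglC in CGEP against SGEP (-3.89), CGEP against XGEP (-3.33) and RGEP against CGEP (2.84), of Y699_06281 in XGEP against SGEP (-3.93), RGEP against XGEP (-3.23) and RGEP against CGEP (3.88), and of Mp1 in RGEP against CGEP (4.30). These ratios were as before, since the setting widens the assumed error alone. Over all genes it left 70 calls in XGEP against SGEP (57 higher, 13 lower), 347 in CGEP (209 and 138) and 214 in RGEP (153 and 61), 192 in CGEP against XGEP (90 and 102), 96 in RGEP against XGEP (51 and 45) and 114 in RGEP against CGEP (41 and 73), where the counts had been 444, 1711, 1386, 1518, 869 and 943. A 2-fold threshold gave 1550 (705 and 845), 3541 (1974 and 1567), 3416 (1358 and 2058), 3436 (2179 and 1257), 2415 (1155 and 1260) and 2946 (967 and 1979) in the same order. TMM and DESeq2 factors each cut the lower calls in RGEP against CGEP from 542 to 348. Those factors shifted the log2 ratios of RGEP to SGEP by 0.30 and of RGEP to CGEP by 0.38. With the assumed variation, calls in CGEP against SGEP were 1 higher and 1 lower in GH16, 0 and 0 in GH17, 1 and 0 in GH72, 1 and 0 in GH55 and GH81, 2 and 0 in GH18, 3 and 0 in GH71, 0 and 0 among the synthases, 3 and 4 among the 25 wall protein texts, 1 and 1 in cluster 25 and 4 and 0 among the conidial markers. In XGEP they were 0 and 1 in GH16, 3 and 2 among the texts and 2 and 0 in cluster 25, and in RGEP 0 and 1, 5 and 3, and 2 and 0, with 1 and 0 in GH55 and GH81; in both, 0 and 0 were left in GH17, GH72, GH18, GH71, the synthases and the conidial markers. The neighbours of EglC had 1 higher and 0 lower calls in each of XGEP, CGEP and RGEP, those of Y699_07380 1 and 0 in CGEP and RGEP, and those of Y699_06281 0 and 0. Over all genes, 57 of 9392 were higher and 13 lower in XGEP against SGEP with this setting. The counts were 209 and 138 of 9423 in CGEP and 153 and 61 of 9408 in RGEP. The lists hold 5 to 25 genes each, so nothing is read from the list counts. Without the RPM filter every count of calls over all genes stayed within 1.5 times. No paired analysis was possible because each carbon source had 1 library. With 1 library each, the spread between cultures is unknown, and the low counts (26 reads of Mp1 in SGEP, 7 of Y699_06281 and 11 of Y699_07380 in CGEP) limit the largest ratios.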
